A study of Peromyscus maniculatus with 16 samples.

Results

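Liver sinusoidal endothelial cells line the capillaries of the liver lobule. They carry open pores without a diaphragm, lack an organised basement membrane, and clear hyaluronan, modified lipoproteins and immune complexes from portal blood through scavenger receptors. In chronic liver injury they are known to lose pores and scavenger receptors and to gain features of ordinary capillary endothelium, a shift called capillarization. The genes examined here were 10 that are widely used to recognise these cells or endothelium in general, taken by symbol from the table of counts. Of these, 8 were among the 16910 genes of the table (Stab2, Lyve1, Pecam1, Kdr, Cdh5, Oit3, Eng and Tek), while Stab1 and Fcgr2b were not analysed here.

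The livers came from 16 outbred deer mice (Peromyscus maniculatus) that were 10 months old at termination. Control animals (C, 6 males) ate regular chow, and 10 animals ate a high-fat diet (HFD) with sucrose for 28 weeks, 5 of which had no steatosis at histology (NS, all males) and 5 of which did (S, 2 males and 3 females). Each group held 1 animal of the SM2 stock of P. maniculatus sonoriensis (C 1, NS 1 and S 1, numbered within their group). The other 13 animals were of the closed BW colony of P. maniculatus bairdii, so the 3 females, S 2, S 4 and S 5, were all BW animals with steatosis. Steatosis was an observed response to the diet and not an assigned treatment, and females were absent from C and NS, so that female sex and steatosis cannot be told apart among BW animals beyond the single BW male of S, animal S 3.

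Whole liver RNA was sequenced, with 4640733 to 11349971 counted reads per animal, and a level is given below as CPM, the count of a gene as a rate of its library's total, after TMM scaling, which evens out depth and composition between libraries. All 8 genes had counts in every animal and passed the filter on low counts. Lyve1 was the gene with the thinnest data, with 5 to 239 reads per liver and a median of 13, whereas Stab2 had 362 to 1236. The defining endothelial genes Cdh5, Pecam1 and Kdr were thus present in all livers, as were hepatocyte, Kupffer cell and stellate cell genes. In whole tissue, fewer cells of a type and less RNA per cell cannot be told apart. Levels of different genes are not set against each other, since no gene lengths of the build used were at hand.

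Stab2 encodes stabilin-2, a scavenger receptor of sinusoidal endothelium that takes up hyaluronan and other ligands. Its level in C ranged from 50.3 to 90.1 CPM with a median of 70.5, and the NS animals had 60.4, 62.9, 72.8, 71.2 and 65.9 CPM. The S animals 1 to 5 had 44.1, 86.0, 91.2, 108 and 107 CPM. The 4 BW animals with steatosis lay above every NS animal, the SM2 animal S 1 was the lowest of all 16, and the groups overlapped. The mean was 70.8 ± 17.3 CPM in C (SD, n = 6), 66.6 ± 5.29 in NS (n = 5) and 87.2 ± 25.9 in S (n = 5). The log2 fold change of S vs C was 0.30 (SE 0.21, edgeR quasi-likelihood test, Benjamini-Hochberg adjusted p = 0.382), so the difference did not pass the test.

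Lyve1, a hyaluronan-binding receptor of sinusoidal and lymphatic endothelium, had a different distribution. In C it lay between 0.664 and 12.9 CPM with a median of 1.81, and the NS animals had 30.1, 2.68, 2.76, 1.82 and 0.678 CPM. The S animals had 0.975, 1.48, 2.06, 1.92 and 6.96 CPM. The SM2 animals of C and NS were far above the other animals of their groups, whereas the SM2 animal of S was the lowest of its group. The spread exceeded the mean in C (3.37 ± 4.69 CPM, SD, n = 6) and in NS (7.61 ± 12.6, n = 5). The log2 fold change of S vs C was -0.32 with all animals (edgeR adjusted p = 0.864), and it turned to 0.92 without C 1 and to 1.13 among BW animals alone, with no call in either case.

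**Figure D1:**
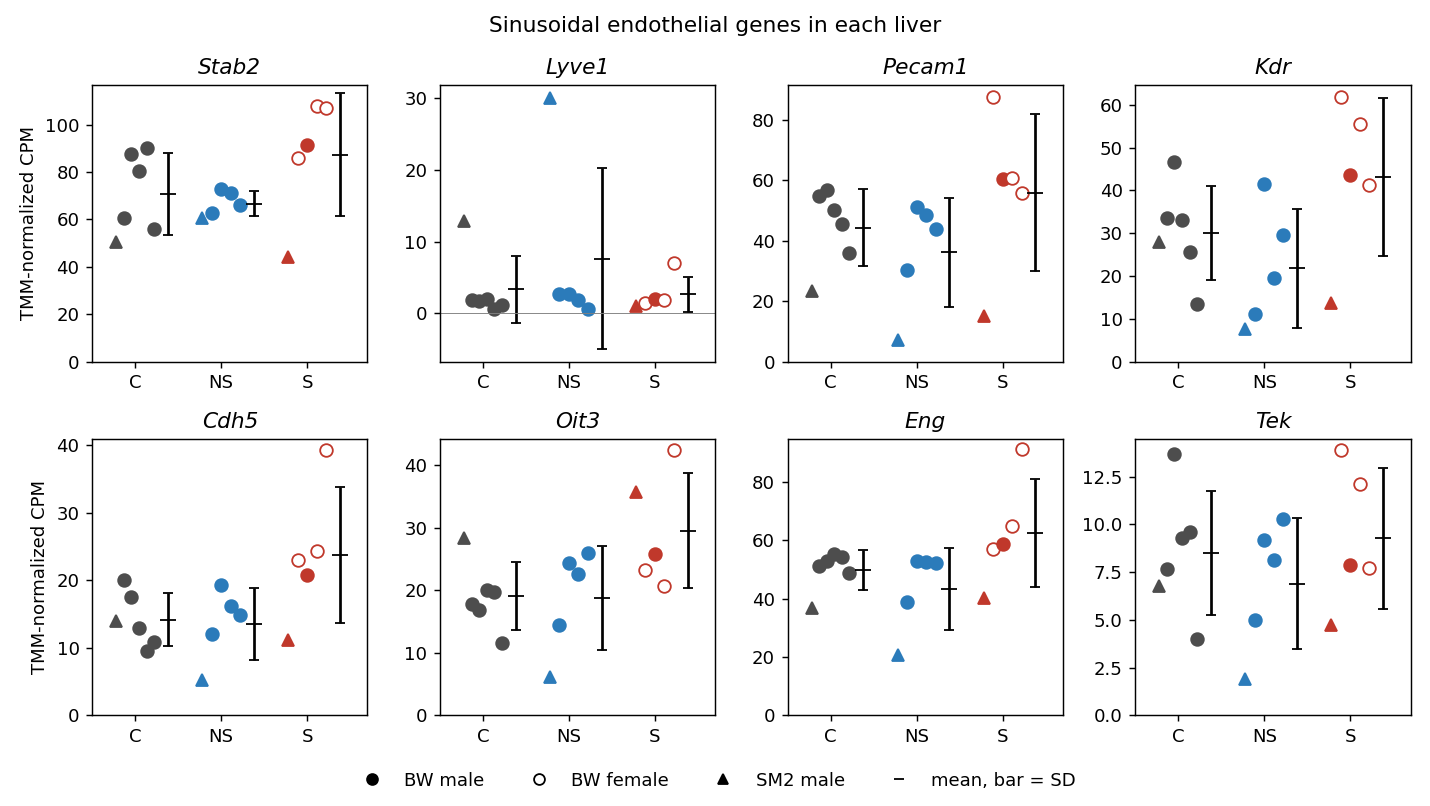
Level of each of the 8 genes in every liver, in TMM-normalized CPM on a linear axis, by group. Filled circles are BW males, open circles BW females and triangles SM2 males, and the horizontal line and bar give the group mean and SD. For Stab2, Pecam1 and Eng the triangle lies below all circles of its own group in all 3 groups, and for Lyve1 the triangle lies at the top in C and NS.

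Pecam1 encodes an adhesion molecule at contacts between endothelial cells that platelets and leukocytes also carry. It ranged from 23.4 to 56.8 CPM in C, with a median of 47.7, and was 7.18, 30.3, 51.1, 48.6 and 43.8 CPM in NS. In S it was 15.1, 87.5, 60.4, 60.6 and 55.9 CPM. Each group had its SM2 animal at the bottom, and every BW animal of S was above every NS animal. Means were 44.4 ± 12.7 CPM in C (SD, n = 6), 36.2 ± 18.1 in NS (n = 5) and 55.9 ± 26.0 in S (n = 5), and the difference of S vs NS (log2 fold change 0.62, edgeR adjusted p = 0.611) did not pass the test.

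Cdh5, VE-cadherin, is the adhesion protein of endothelial adherens junctions. It lay between 9.58 and 20.01 CPM in C with a median of 13.5, and was 5.17, 12.1, 19.3, 16.2 and 14.9 CPM in NS. The S animals had 11.2, 23.0, 20.8, 24.3 and 39.3 CPM. All 4 BW animals of S were above all C and NS animals, and only S 1 fell within their range. The mean was 14.2 ± 3.98 CPM in C (SD, n = 6), 13.5 ± 5.34 in NS (n = 5) and 23.7 ± 10.1 in S (n = 5). Cdh5 had the smallest p-value of the 8 genes in both comparisons with S, at a log2 fold change of 0.75 in S vs C (95% interval 0.09 to 1.41, edgeR adjusted p = 0.16) and 0.81 in S vs NS (SE 0.33, adjusted p = 0.405). Without S 5, its highest animal, the log2 fold changes were 0.49 and 0.55.

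Kdr encodes VEGFR2, the main signalling receptor for vascular endothelial growth factor A. Its range in C was 13.5 to 46.7 CPM with a median of 30.5, and the NS animals had 7.56, 11.1, 41.5, 19.5 and 29.6 CPM. The S animals had 13.8, 61.9, 43.5, 55.4 and 41.3 CPM. The females S 2 and S 4 were highest, but C 3 and NS 3 were above S 5 and the groups overlapped. The mean level was 30.1 ± 10.9 CPM in C (SD, n = 6), 21.8 ± 13.9 in NS (n = 5) and 43.2 ± 18.5 in S (n = 5). The log2 fold change of S vs NS was 0.98 (95% interval 0.06 to 1.89, edgeR adjusted p = 0.43).

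Eng encodes endoglin, a co-receptor through which endothelium binds BMP9 and BMP10. It stayed within 36.9 to 55.3 CPM in C, with a median of 52.0, and was 20.7, 38.9, 52.9, 52.7 and 52.2 CPM in NS. In S it was 40.2, 57.1, 58.9, 64.9 and 91.4 CPM. Again the SM2 animals were lowest in each group and the 4 BW animals of S were above all other livers. The means were 49.9 ± 6.77 CPM in C (SD, n = 6), 43.5 ± 14.1 in NS (n = 5) and 62.5 ± 18.6 in S (n = 5), with a log2 fold change of 0.52 in S vs NS (95% interval 0.02 to 1.03, edgeR adjusted p = 0.437).

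Oit3, a gene with a zona pellucida domain that is used as a sinusoidal endothelial marker, and Tek, which encodes the angiopoietin receptor Tie2, are given by their ranges. Oit3 ranged from 11.6 to 28.4 CPM in C, 6.18 to 26.0 in NS and 20.7 to 42.4 in S. Its SM2 animals lay at opposite ends, with the highest level of C, the lowest of NS and the second highest of S. The log2 fold change of Oit3 was 0.63 in S vs C (95% interval -0.02 to 1.27, edgeR adjusted p = 0.218). Tek ranged from 3.99 to 13.7 CPM in C, 1.89 to 10.3 in NS and 4.75 to 13.9 in S, with full overlap of the groups and a log2 fold change of 0.13 in S vs C (edgeR adjusted p = 0.873).

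**Figure D2:**
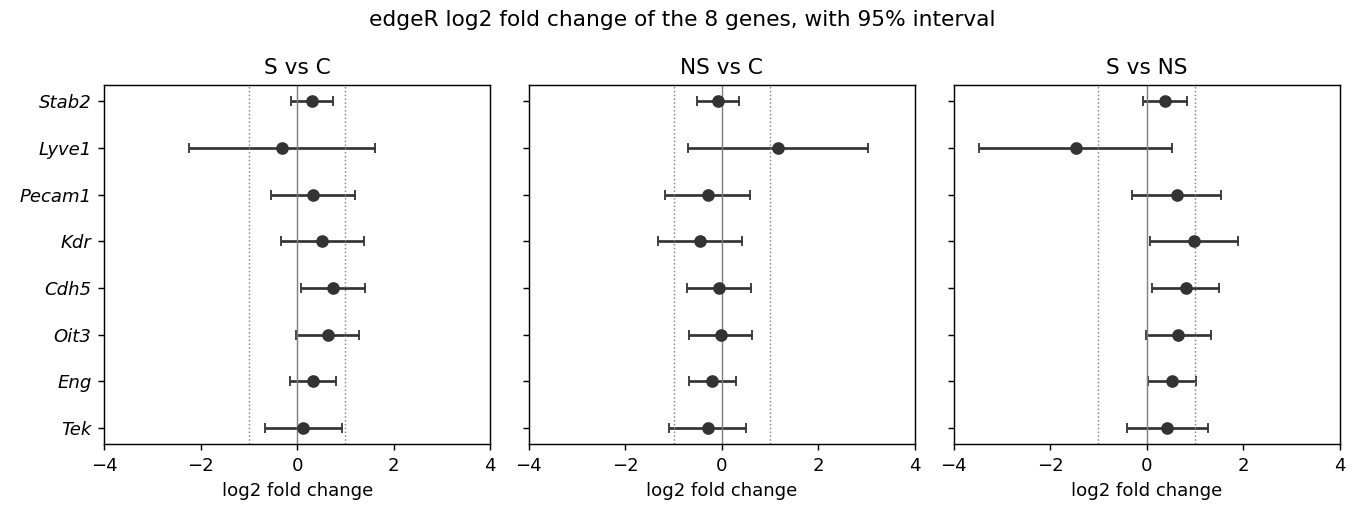
Log2 fold change of the 8 genes in the 3 comparisons, from the edgeR fit of all 16 animals, with 95% intervals as bars and a line at 0. The intervals of Cdh5 in S vs C and of Kdr, Cdh5 and Eng in S vs NS lie above 0 before adjustment over all genes, and those of Lyve1 are the widest.

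The comparison of S vs C asks how livers with steatosis after HFD differ from livers on regular chow. Calls required an adjusted p below 0.1 over the 12639 genes tested together with a change of 2-fold or more. By edgeR 0 of the 8 genes were called, where 4.06% of all genes were called, and DESeq2 called 0 of 7 and 4.32% of all genes, as it gave no p-value for Lyve1 in any comparison. At an unadjusted p under 0.05, edgeR had 1 gene, Cdh5, and DESeq2 had 2, Cdh5 and Oit3, beside 23.8% and 23.7% of all genes. The estimate was above 0 for 7 of the 8 genes, all but Lyve1, against 57.8% of all genes. The median log2 fold change of the 8 was 0.33, against 0.10 over all genes. Among lists described below, it was 0.21 for 16 other sinusoidal endothelial genes and 0.27 for 24 pan-endothelial genes. It was 0.33 for 11 Kupffer cell, 0.07 for 12 stellate cell and -0.31 for 8 hepatocyte genes.

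In NS vs C, which sets HFD without steatosis beside regular chow, 0 of the 8 genes were called by edgeR and 0 of 7 by DESeq2, where 0.0712% and 0.363% of all genes were called. An unadjusted p under 0.05 was reached by 0 of the 8 with edgeR and 0 of 7 with DESeq2, beside 8.29% and 8.64% of all genes. The estimate was above 0 for 1 of the 8 genes, against 50.8% of all genes. Estimates lay for the other 7 genes between -0.45 for Kdr and -0.03 for Oit3, against 1.15 for Lyve1 (95% interval -0.71 to 3.02, edgeR adjusted p = 0.769), which became -0.77 without NS 1. The intervals still admit sizeable differences, as with Kdr from -1.33 to 0.42 and Pecam1 from -1.17 to 0.59.

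S vs NS sets steatosis beside its absence under the same diet. By edgeR 0 of the 8 genes were called, where 0.00791% of all genes, or 1 gene, was called, and DESeq2 called 0 of 7 and 0.476% of all genes. Kdr, Cdh5 and Eng had an unadjusted p under 0.05 by edgeR, all higher in S, and Oit3 joined them by DESeq2. The 3 genes by edgeR stood beside 6.19% of all genes that were higher at that level, and the 4 by DESeq2 beside 10.3% in either direction. The estimate was above 0 for 7 of the 8 genes, against 53.9% of all genes. The median log2 fold change of the 8 genes was 0.57, against 0.04 over all genes. Lists described below also had medians above 0, at 0.46 for 16 other sinusoidal endothelial genes and 0.20 for 24 pan-endothelial genes. The medians were 0.47 for 11 Kupffer cell, 0.45 for 12 stellate cell and 0.89 for 5 smooth muscle genes. Hepatocyte and B cell genes went the other way, at -0.33 for 8 and -0.14 for 7 genes. The shift was thus not particular to the 8 genes. S vs C and S vs NS share the S animals, and the 2 sets of estimates are therefore not independent of each other.

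**Figure D3:**
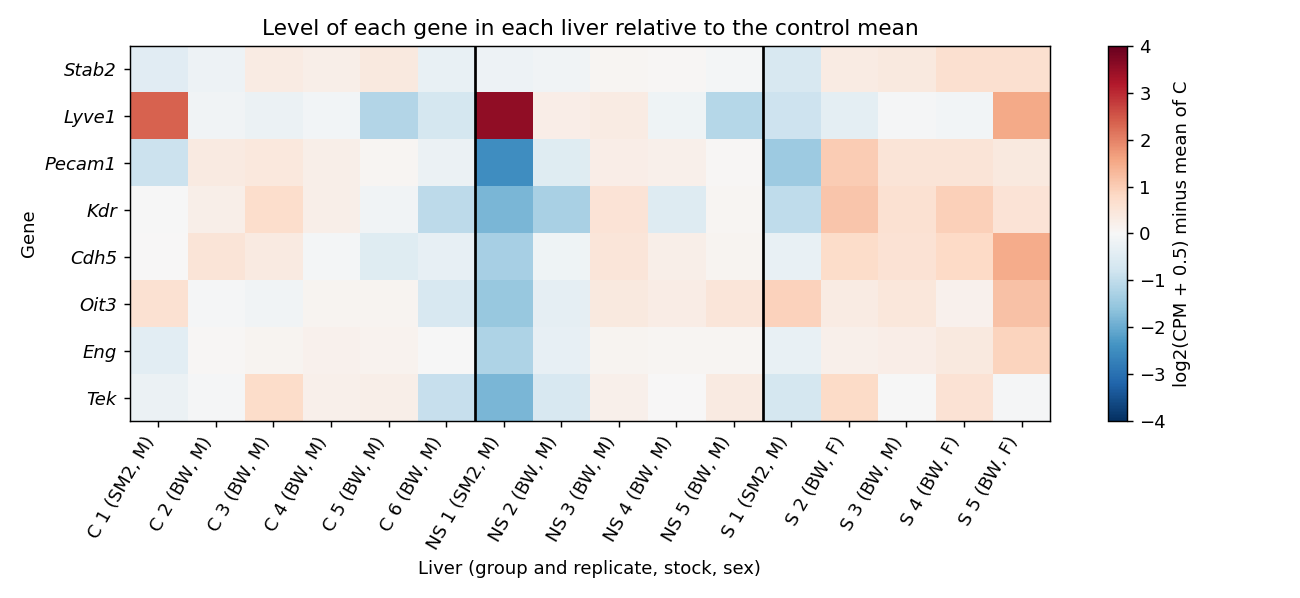
Level of each of the 8 genes in each of the 16 livers, as log2(CPM + 0.5) minus the mean of C, with livers in columns by group, stock and sex and a colour scale in log2 units. The columns of NS 1 and S 1, both SM2, are low for most genes other than Lyve1, and the columns of the BW animals with steatosis are mostly above the mean of C.

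The SM2 animal was the lowest of its group for 3 of the 8 genes in C and for 7 each in NS and S. The groups were therefore also set side by side among the 13 BW animals. The counts of genes without overlap were added after the values were seen. Between the 4 BW animals of S and the 4 of NS, Stab2, Pecam1, Cdh5 and Eng did not overlap and were higher in S, which was 4 of 8 genes beside 2.21% of all genes. Between the BW animals of S and the 5 of C, this held for Cdh5, Oit3 and Eng, 3 of 8 genes beside 3.81%. For NS vs C it held for 0 of 8 genes, beside 1.24%. With all 16 animals, 0 of the 8 genes were higher without overlap, beside 1.86% (S vs C), 0.562% (NS vs C) or 0.427% (S vs NS) of all genes.

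A fit of the BW animals alone, over 12333 genes, called 0 of the 8 genes in each comparison, where the share of all genes called was 4.95% (S vs C), 0.0892% (NS vs C) or 0.146% (S vs NS). An unadjusted p under 0.05 in the higher direction was reached in S vs C by 7 of 8 genes, all but Tek, beside 13.8% of all genes. In S vs NS it was reached by Stab2, Pecam1, Kdr, Cdh5 and Eng, beside 7.99%. Without the requirement of a 2-fold change, Cdh5 (log2 fold change 0.93, SE 0.24, edgeR adjusted p = 0.0471) and Oit3 (0.70, SE 0.24, adjusted p = 0.0867) were higher in S vs C at an adjusted p under 0.1, as were 5.97% of all genes. These BW comparisons set 3 females and 1 male of S against males, and their sex cannot be told apart from steatosis. The single BW male of S, S 3, had 91.2 CPM of Stab2, 60.4 of Pecam1, 43.5 of Kdr, 20.8 of Cdh5 and 58.9 of Eng, each above every BW animal of NS, and 25.7 of Oit3, 7.88 of Tek and 2.06 of Lyve1, each within their range. These 5 of 8 genes stood beside 29.1% of all genes for which S 3 was above every BW animal of NS. With sex as a covariate, an estimate that rests on S 3 and the SM2 animal S 1 as the males of S, the median of the 8 log2 fold changes of S vs C was -0.07, with Stab2, Pecam1, Kdr, Eng and Tek turned below 0, and that of S vs NS was 0.12. With stock and sex both as covariates these medians were 0.06 and 0.45, and among BW males alone, where S holds only S 3, they were 0.43 and 0.35.

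The contrast between stocks was also taken from the data after they were seen, as the stock term of a fit with group and stock, for 3 SM2 animals, 1 per group, against 13 BW animals. By edgeR, 4 of the 8 genes were called between the stocks, where 10.8% of all genes were called. Lyve1 was 6.78-fold higher in SM2, with a mean of 14.7 CPM against 2.13 in BW (log2 fold change 2.76, SE 0.62, adjusted p = 0.00627). Pecam1 was lower in SM2, with 15.2 CPM against 52.4 in BW (log2 fold change -1.80, SE 0.27, adjusted p = 0.000246). Kdr (-1.07, adjusted p = 0.0855) and Tek (-1.05, adjusted p = 0.0573) were also called lower, and 4.93% of all genes were called lower. The direction of the Lyve1 difference came from C 1 and NS 1, since S 1, at 0.975 CPM, lay within the BW range.

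Stab2 (log2 fold change -0.60, edgeR adjusted p = 0.0316), Cdh5 (-0.84, adjusted p = 0.0684) and Eng (-0.81, adjusted p = 0.00392) were lower in SM2 at an adjusted p under 0.1 but by less than 2-fold, and Oit3 was at 0.02 (adjusted p = 0.974). For Stab2, Pecam1 and Eng the SM2 animal lay below every BW animal of its group in all 3 groups, 3 of 8 genes beside 6.01% of all genes. Within single groups this held for 3 genes in C (21.0% of all genes), 7 in NS (26.9%) and 7 in S (24.0%). The calls rested on few animals. Pecam1 was called whichever animal was left out, whereas without NS 1 it was the only one of the 8 genes called and Lyve1 was at 1.86 (adjusted p = 0.179). Without S 1 or C 3, 2 of the 8 genes were called, and without C 1, 5 were. The call of Tek was lost without C 3, NS 1 or S 1, and that of Kdr without any of C 2, C 3, C 4, NS 1, NS 3, NS 5, S 1, S 2 or S 4. Whether reads of the SM2 subspecies map to the assembly as well as BW reads was not tested.

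Several other lists were lower in SM2 by their median. The median log2 difference between SM2 and BW was -0.82 for the 8 genes, -0.77 for 16 other sinusoidal endothelial genes, -0.47 for 24 pan-endothelial genes, -0.84 for 11 Kupffer cell genes, -0.68 for 12 stellate cell genes and -0.07 for 8 hepatocyte genes, against -0.04 over all genes. Among the other sinusoidal genes, Mrc1, the mannose receptor, averaged 23.0 CPM in SM2 and 75.6 in BW, and Dnase1l3, a secreted DNase, averaged 46.8 and 115. Some genes of these lists were called higher in SM2. In the pan-endothelial list these were the transcription factor Erg, with 19.8 CPM in SM2 and 7.91 in BW (log2 fold change 1.35, edgeR adjusted p = 0.000444), and Ramp2, a subunit of the adrenomedullin receptor (1.08, adjusted p = 0.00185). In the Kupffer cell list they were the haemoglobin scavenger receptor Cd163, with 27.1 CPM in SM2 and 1.94 in BW (3.87, adjusted p = 5.94e-05), and Adgre1, which encodes F4/80 (1.81, adjusted p = 0.0571). Adgre1 had few reads, with means of 0.941 CPM in SM2 and 0.282 in BW.

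The levels of the genes other than Lyve1, as measured, were positively correlated across animals. Because the stocks differ, Pearson's r of log2 CPM is given within the 13 BW animals as a description, and the genes of a liver share its library, depth and piece of tissue. Among the 21 pairs without Lyve1, r ranged from 0.33 to 0.91 with a median of 0.61. Group means were not removed here, so differences between groups enter r. After removing group means over all 16 animals, these pairs ranged from -0.01, for Stab2 and Oit3, to 0.90 with a median of 0.66. The 7 pairs with Lyve1 ranged from -0.14 to 0.71 with a median of 0.35. With SM2 included, r of those 7 pairs was between -0.57 and -0.13. The pair of Lyve1 and Tek was negative among BW animals as well (-0.14), and the other pairs with Lyve1 were positive there.

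A single animal could be low or high for most of the genes at once. NS 1 had the lowest level of its group for 7 of the 8 genes and the lowest of all 16 livers for 6, with the highest Lyve1 of all. S 1 was the lowest of S for 7 genes. S 5 was the highest of S for 4 genes and also had the highest summed Kupffer cell level.

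Genes outside the lists whose levels followed the 8 genes most closely were sought among 8078 genes with a mean of at least 5 CPM, by Pearson's r with the mean of the 8 after removing group means over 16 animals. The 10 closest were Rgl1, Prelp, Adgrf5, Vipr1, Tgfbr2, Ndrg1, Prps2, Elk3, F2r and Ano6, with r from 0.92 for Rgl1 to 0.87 for Ano6. Within BW animals alone their r was between 0.73 for Vipr1 and 0.87 for Tgfbr2. Of the 10, none was called in S vs C, and Tgfbr2, a receptor for TGF-beta, had the largest estimate there (log2 fold change 1.01, edgeR adjusted p = 0.106).

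Other genes of the same vessels were read from lists by role. Over all genes in S vs C, edgeR called 4.06%, and 23.8% had an unadjusted p under 0.05, beside which the counts per list stand. Of the 16 other sinusoidal endothelial genes tested, 1 was called in S vs C, Cd36, a scavenger receptor and fatty acid transporter that hepatocytes and macrophages also express. Cd36 rose from 67.0 ± 22.1 CPM in C (SD, n = 6) to 152 ± 42.9 in S (n = 5), a log2 fold change of 1.18 (SE 0.27, edgeR adjusted p = 0.0294), with S animals at 104 to 202 CPM and C animals at 33.5 to 89.8. The NS animals had 30.1 to 78.3 CPM, so S did not overlap either group. In S vs NS edgeR did not call it (log2 fold change 1.42, adjusted p = 0.211), whereas DESeq2 did (1.44, adjusted p = 0.00171). With sex as a covariate the S vs C difference was 0.82 (adjusted p = 0.159). Ctsl, a lysosomal protease, and Dnase1l3 were at -0.37 and 0.01 in S vs C without a call.

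Of 12 genes zonated along the sinusoid, 2 were called higher in S vs C, the cadherin Cdh13 (log2 fold change 2.93, edgeR adjusted p = 0.0766) and the arterial ephrin Efnb2 (1.64, adjusted p = 0.0932). Both had few reads, at means of 1.76 and 2.79 CPM in S, and without S 3 they were not called and stood at 1.497 and 0.87. Of 24 pan-endothelial genes, Sox18, an endothelial transcription factor (1.09, adjusted p = 0.077), and S1pr1, the receptor for sphingosine-1-phosphate (1.05, adjusted p = 0.0898), were called higher. Of 12 transcription factors of these cells Meis2 was called (1.46, adjusted p = 0.0971), while Maf and Lmo2 were at 0.13 and -0.04. With each of the 11 animals of S and C left out in turn, Cdh13 was still called in 5 cases, Efnb2 in 3, Sox18 in 4, S1pr1 in 2 and Meis2 in 3, and leaving out C 1, C 4, C 5 or C 6 ended all of these calls. Efnb2, Sox18, S1pr1 and Meis2 also lost theirs without S 5. With sex as a covariate Sox18 (0.60, adjusted p = 0.445) and Meis2 (1.45, adjusted p = 0.207) were not called. Among BW animals Sox18 (1.07, edgeR adjusted p = 0.102) and S1pr1 (0.76, adjusted p = 0.125) were not called, whereas Cdh13, Efnb2 and Meis2 were. S1pr1 averaged 45.1 CPM in SM2 and 22.3 in BW. Of 15 genes of continuous endothelium and capillarization 0 were called by edgeR and DESeq2, with 1 at an unadjusted p under 0.05 by edgeR. Among these were Col4a1, a basement membrane collagen (0.46, adjusted p = 0.273), and Plvap, the diaphragm protein (0.04, adjusted p = 0.964).

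Around Kdr, 0 of the 9 measured VEGF pathway genes were called by edgeR in S vs C, 2 had an unadjusted p under 0.05 and DESeq2 called 1, Esm1. Vegfa, the ligand, was 86.9 ± 15.2 CPM in C (SD, n = 6), 140 ± 67.1 in NS (n = 5) and 123 ± 52.1 in S (n = 5), with log2 fold changes of 0.69 in NS vs C (edgeR adjusted p = 0.56) and 0.50 in S vs C (adjusted p = 0.282). Vegfa also differed between stocks, with a mean of 181 CPM in SM2 (87.7 to 241) and 99.4 in BW (70.9 to 173). That log2 fold change was 0.77 (edgeR adjusted p = 0.0229). The SM2 animals can thus weigh on group means of Vegfa, but not on all alike, as the lowest SM2 level was near the mean of C. The signalling enzyme Plcg1 was at 0.12 in S vs C. Chosen by role after values were seen were the receptors Flt1, a decoy for VEGF, at 0.05, and the co-receptor Nrp1 at 0.94 (adjusted p = 0.192). Around Tek, 0 of 6 angiopoietin-Tie genes were called by edgeR and DESeq2, and 1 had an unadjusted p under 0.05 by edgeR. The co-receptor Tie1 was at 0.13 and the phosphatase Ptprb, which acts on Tie2, at 0.34. The ligand Angpt1, chosen in the same way, was at 2.05 (adjusted p = 0.124) with 1.22 to 25.0 CPM among S animals.

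Around Eng, 1 of the 16 BMP9-endoglin pathway genes was called in S vs C. Smad7, a feedback inhibitor of TGF-beta and BMP signalling, rose from 6.16 ± 2.04 CPM in C (SD, n = 6) to 16.8 ± 10.2 in S (n = 5). Its log2 fold change was 1.44 (SE 0.37, edgeR adjusted p = 0.0418), and without S 3 it was 1.07 (adjusted p = 0.106). Id2, a target gene, was at 0.47 (adjusted p = 0.458). The ligand Gdf2, which encodes BMP9, and the receptor Acvrl1 were chosen by role after values were seen and were at -0.45 (adjusted p = 0.21) and 0.61 (adjusted p = 0.273). In NS vs C and S vs NS edgeR called 0 genes of any of these lists.

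Genes of other liver cells were summed alongside. The summed level of the 8 sinusoidal genes was 240 ± 41.5 CPM in C (SD, n = 6), 215 ± 55.0 in NS (n = 5) and 314 ± 87.7 in S (n = 5), and among BW animals it was 182 to 294 in C, 177 to 274 in NS and 311 to 392 in S. The 16 other sinusoidal endothelial genes overlapped among BW animals, with sums of 1089 to 1537 CPM in C, 1051 to 1510 in NS and 997 to 1550 in S. Ctsl, at a mean of 808 CPM in BW animals, weighs most on that sum. The 11 Kupffer cell genes, with 0 called, summed to 328 to 657 CPM in C, 277 to 653 in NS and 208 to 1190 in S, where S 5 was highest. The 12 stellate cell genes summed to 363 to 638 CPM in C, 265 to 514 in NS and 297 to 2470 in S, where S 3 was highest through the collagen Col1a1 (2060 CPM), whose S vs C log2 fold change of 5.56 was -0.28 without that animal. The 8 hepatocyte genes summed to 55060 to 77630 CPM in C, 47340 to 87580 in NS and 43510 to 70990 in S. The part of these shifts in the levels of the sinusoidal genes was not tested.

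**Figure D4:**
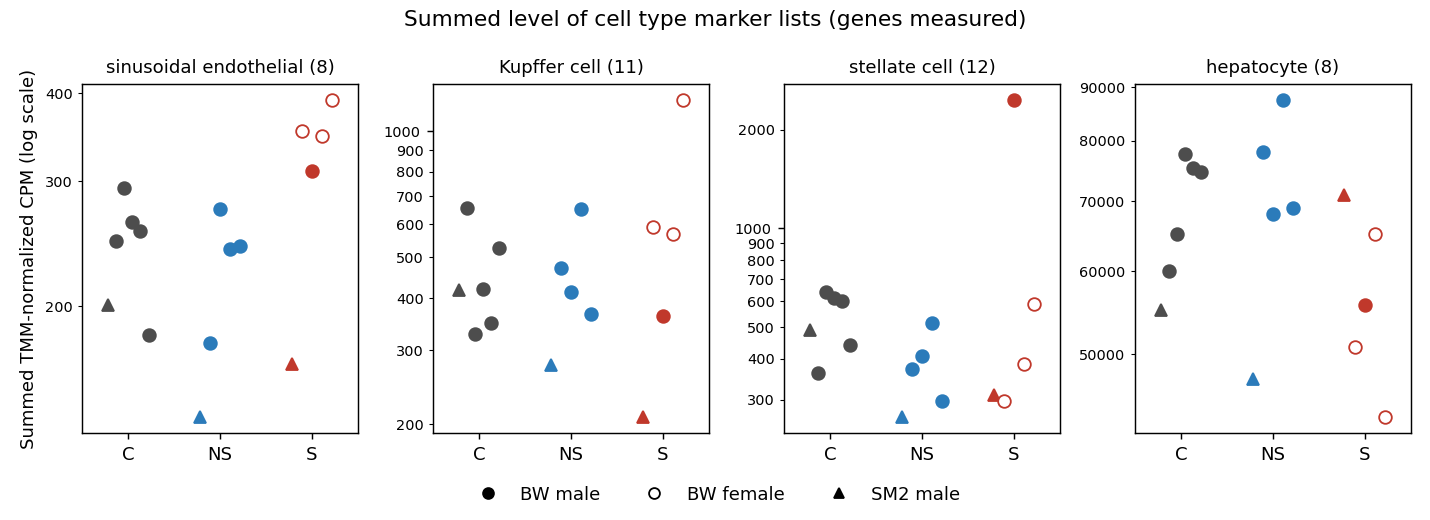
Summed TMM-normalized CPM, on log axes, of the 8 sinusoidal endothelial genes, 11 Kupffer cell genes, 12 stellate cell genes and 8 hepatocyte genes in each liver, by group. Filled circles are BW males, open circles BW females and triangles SM2 males. The 4 BW animals of S lie at 311 to 392 CPM for the sinusoidal genes, above all C and NS animals, while S 3 has the highest stellate sum and S 5 the highest Kupffer sum.

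In S vs C the other called genes of these lists were 2 stellate genes (Col1a1 and Dcn, the latter at -1.05, edgeR adjusted p = 0.0354), the neutrophil genes S100a8 (-1.98, adjusted p = 0.0452) and S100a9 (-1.77, adjusted p = 0.0497) and the B cell gene Cd79b (1.83, adjusted p = 0.0554). S100a8 and S100a9 were the only genes below 0 among the 6 monocyte and neutrophil genes tested. The other 4 had estimates above 0, and the median of that list was 0.29. The call of Dcn was lost without C 3, C 4, S 1 or S 2, and that of Cd79b without C 4, C 6 or S 4. Cd79b had few reads, with means of 0.653 CPM in SM2 and 0.6 in BW. The 7 B cell genes together summed to a mean of 10.7 CPM in C and 8.85 in S. With sex as a covariate S100a8 (adjusted p = 0.144), S100a9 (adjusted p = 0.138) and Cd79b (adjusted p = 0.232) were not called, and DESeq2 gave no p-value for Col1a1, Angpt1, Cd163 or the lymphatic gene Sema3a. The lists of hepatocyte (8 tested), smooth muscle (5), cholangiocyte (5), T and NK cell (6), lymphatic endothelial (4) and erythroid genes (2) had 0 called by edgeR and DESeq2. In the same order, 4, 0, 0, 0, 2 and 0 genes had an unadjusted p under 0.05 by edgeR, beside 23.8% of all genes. Of these 4 hepatocyte genes, 1 was higher and 3 were lower in S, and the 2 lymphatic genes were higher. Prox1, the defining transcription factor of lymphatic endothelium, which hepatocytes also express, was at 0.71 in S vs C (adjusted p = 0.165), and it was measured beside Lyve1 because lymphatic vessels carry both.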

How the data were processed

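Liver RNA of 16 deer mice was sequenced with a directional paired-end kit. Reads were aligned by the authors to the HU_Pman_2.1 assembly with STAR 2.7.2, unique reads were assigned to genes with featureCounts, and raw counts were deposited by symbol. The strand setting and the conversion to symbols are not given in the sources used here, so overlapping genes and close paralogs are uncertain. Groups came from the sample labels, and no 2 animals of a group agreed within sampling noise. Here, the counts were tested with edgeR 4.0.16 (quasi-likelihood, TMM, at least 0.5 CPM in 1 animal, all 16 animals in 1 fit, no covariates) in R 4.3.3, with DESeq2 1.42.0 as an alternative, which gave p-values for 12402 of the 12639 genes and whose shares are over those, and figures were drawn with matplotlib 3.10.9. The test was checked on simulated data. The 8 genes and the 18 lists were chosen with earlier results of these data known, and the stock contrast after the values were seen. Named genes are the members, the called genes of each list or otherwise the 2 with the highest mean CPM, and the 10 genes closest in pattern. From lists without a call only some of the 2 are printed. Counting error limits genes with few reads, Lyve1 first. No sequences or coordinates were used here. Alternatives tried were other scalings, filters, covariates, call limits, subsets of animals and leaving out each animal.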

Additional observations from a re-analysis of the deposited data

Results flagged for a closer look

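Of 27 sets of values tested, each holding the animals of 1 group for 1 gene or for the summed level, 4 had an animal set far from the rest. Chance alone gives about 5% of sets where sets are independent and values normally distributed. The sets here share animals, so that rate is only a rough guide. Lyve1 was high in 1 animal of each group. In C, animal C 1 had 12.9 CPM and the next 1.94. In NS, animal NS 1 had 30.1 CPM and the next 2.76. In S, animal S 5 had 6.96 CPM and the next 2.06. C 1 and NS 1 were SM2 animals and S 5 was a BW female. For Eng, C 1 was the lowest of C, with 36.9 CPM against 48.8 for the next.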

How the results depend on the processing

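The count of 0 called genes in each comparison of groups was the same under every alternative at a fold of 2, and changed to 2 (Cdh5 and Oit3) in S vs C among BW animals at any fold. Calls at any fold were counted only for the main fit, BW animals and stock as a covariate. In S vs C, edgeR adjusted p was also under 0.1 with total counts for Cdh5 (0.0726) and Oit3 (0.0874). The same held without S 1 for Cdh5 (0.075) and Stab2 (0.0994). Between stocks 4 genes were called, 2 with stock and sex as covariates, and 1 to 5 with an animal left out. Where edgeR called 0 list genes, DESeq2 called 2 (Thbd and Apoa1) for NS vs C, but 1 (Cd36) for S vs NS. No paired analysis was made, because each liver came from a different animal and the labels match no animals between groups. Total-count scaling moved the median of all genes to 0.33 (S vs C), 0.17 (S vs NS) or 0.11 (NS vs C), and that of the 8 genes was then 0.58, 0.74 or -0.05. The following uncalled log2 fold changes turned sign, and the cause was not tested. With total counts, NS vs C was 0.0072 for Stab2, 0.0199 for Cdh5 and 0.0579 for Oit3, and Oit3 in SM2 vs BW was -0.0211. With stock as a covariate, Lyve1 in S vs C was 0.68. With sex as a covariate, S vs C was -0.0685 for Stab2, -0.24 for Pecam1, -0.0759 for Kdr, -0.0111 for Eng and -0.44 for Tek, and Tek in S vs NS was -0.14. Among males, S vs C was -0.0678 for Stab2, -0.24 for Pecam1, -0.0748 for Kdr, -0.0104 for Eng and -0.44 for Tek, and Tek in S vs NS was -0.14. Among BW animals, Lyve1 was 0.67 in S vs NS but 1.13 in S vs C, and NS vs C was 0.13 for Cdh5 and 0.33 for Oit3. Among BW males, S vs C was 0.54 for Lyve1 and -0.15 for Tek, NS vs C was 0.15 for Cdh5 and 0.35 for Oit3, and S vs NS was 0.0554 for Lyve1 and -0.0364 for Tek. With stock and sex, Tek in S vs C was -0.16 and Oit3 in SM2 vs BW was -0.0051. With an animal left out, Lyve1 ranged from -2.23 to 0.45 (S vs NS), -0.77 to 2.39 (NS vs C) or -1.08 to 0.92 (S vs C), Tek from -0.0593 to 0.31 in S vs C, Cdh5 from -0.22 to 0.15 and Oit3 from -0.18 to 0.19 in NS vs C, and Oit3 in SM2 vs BW from -0.47 to 0.54.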
